A study of Homo sapiens with 4 samples.

Results

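This report describes 9 transcription factor genes that mark the mesenchymal state of neuroblastoma, namely PRRX1, RUNX1, RUNX2, SNAI2, TWIST1, MEOX1, MEOX2, SIX4 and TBX18. They were taken by name from the 17687 gene symbols with a probe set on the array, and each had 1 probe set. Whole-transcript Affymetrix arrays were used to measure RNA of SK-N-AS, an established line from a human neuroblastoma. The treated group was exposed to BG-P400-TAT at 30 µM for 48 h, and the untreated group to phosphate-buffered saline over the same 48 h, with 2 arrays each. Both groups come from a single line grown in serum-containing medium. The series title presents the compound as acting on the norepinephrine transporter and on the integrin αvβ3, and the design text calls the samples biological replicates without saying how the cultures were separated, so the p-values cover only the spread among these 4 arrays, which may be technical.

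Neuroblastoma cells are known in an adrenergic state, close to sympathetic neuroblasts, and in a mesenchymal state, close to neural crest cells. Each state is held by a set of transcription factors that bind each other's enhancers, and PRRX1 can drive adrenergic cells toward the mesenchymal state. SK-N-AS is commonly placed on the mesenchymal side. The 9 factors fall into homeodomain proteins (PRRX1, MEOX1, MEOX2, SIX4), runt-domain proteins (RUNX1, RUNX2), factors of the epithelial-mesenchymal transition (the zinc-finger repressor SNAI2 and the basic helix-loop-helix factor TWIST1) and the T-box protein TBX18.

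Of the 9 genes, 6 were above the negative controls and 3 were not, and none of the 9 passed the test for a difference between treated and untreated cells. All values are log2 expression, and the limit is 6.96, the 95th percentile of the means of 612 negative-control sets over the 4 arrays. PRRX1, RUNX1, RUNX2, SNAI2, TWIST1 and TBX18 lay above it, and MEOX1, MEOX2 and SIX4 below it. Of all 21448 probe sets tested, 9960 lay above the limit. The nearest gene above the limit was RUNX2, whose mean exceeded it by 0.66, and the nearest below was MEOX1, whose mean minus the limit was -1.02. Each array also has a limit of its own, at 7.19 and 7.25 on treated replicates 1 and 2 and at 7.31 and 7.64 on untreated replicates 1 and 2. Of the 6 genes, 5 exceeded it on all 4 arrays, and RUNX2 did so on 3, all but untreated replicate 2. In such bulk RNA, fewer cells with a transcript and less of it per cell cannot be told apart. A level on the array is specific to its probe set, so levels are compared between arrays and not between genes.

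**Figure D1:**
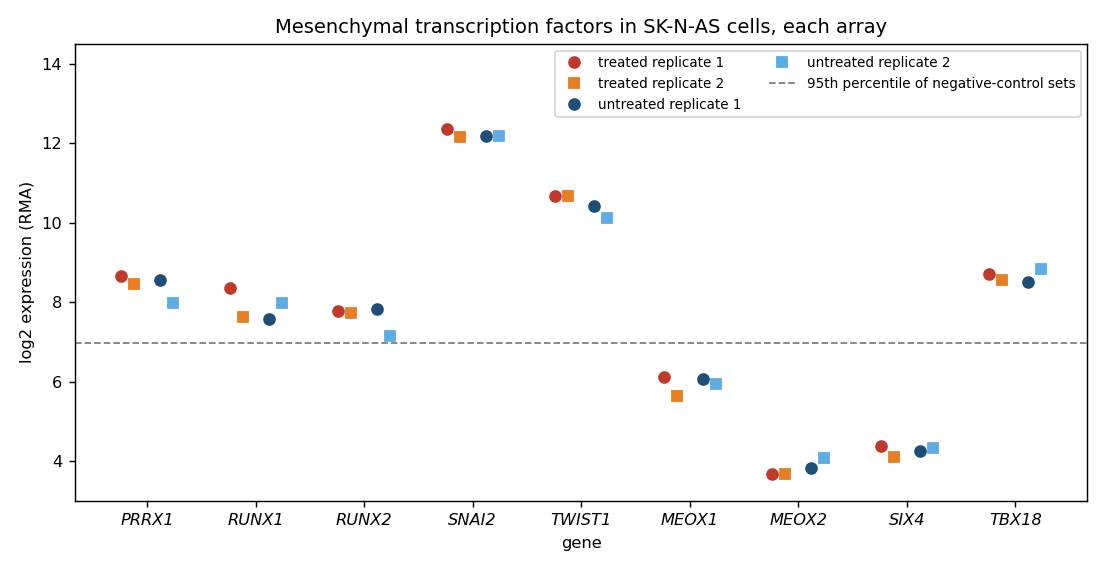
Log2 expression (vertical axis) of the 9 genes (horizontal axis) on each of the 4 arrays, with treated arrays left of untreated arrays for each gene and 1 point per array. The dashed line is the limit set by the negative controls (6.96); all points of MEOX1, MEOX2 and SIX4 lie below it and all points of the other 6 genes above it.

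Across the whole table of 21448 probe sets, 0 were called by limma at an adjusted p under 0.05 (0%), and 1089 had an unadjusted p under 0.05 (5.08%). None of the 9 genes was among those 1089. Of the probe sets above the limit, 2.49% had an unadjusted p under 0.05. The sign of the difference, treated minus untreated, was positive for 5 of the 9 genes, compared with 49.1% of all probe sets tested. Among the 6 genes above the limit it was positive for 5 and negative for 1, compared with 58.6% positive among the 9960 probe sets above the limit. The median difference of these 6 was 0.24, against 0.038 for the 9960, and over all 9 genes it was 0.078, against -0.0046 for all tested sets. The median of the 6 was 0.072 without treated replicate 1, with 3 of the 6 positive, and 0.11 without untreated replicate 2, with 4 positive. For a single gene, 2 arrays a group allow 6 arrangements of the labels, and the smallest two-sided p of an exact permutation test is then 0.333.

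Of the 6 genes above the limit, TWIST1 was the one whose treated and untreated arrays did not overlap. It encodes a basic helix-loop-helix factor that binds E-boxes and is best known for its part in mesoderm, cranial neural crest and the epithelial-mesenchymal transition. TWIST1 stood at 10.67 and 10.66 on the treated arrays, against 10.42 and 10.11 on the untreated arrays. Both treated arrays thus exceeded both untreated arrays, and the treated arrays differed from each other by 0.0063, compared with 0.31 between the untreated arrays. The difference in TWIST1 was 0.40 ± 0.20 (SE), or 1.32-fold, with a 95% confidence interval from 0.95- to 1.82-fold, and the limma adjusted p was 0.948, so it did not pass. Leaving out an array gave differences of 0.24 to 0.55. Of the probe sets above the limit, 20.9% likewise had both treated arrays above both untreated arrays, and 93.4% had a smaller absolute difference than TWIST1.

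SNAI2, also called SLUG, encodes a zinc-finger repressor of epithelial genes that is expressed in migrating neural crest. It stood at 12.36 and 12.15 on the treated arrays and at 12.18 and 12.18 on the untreated arrays. The untreated arrays differed by 0.0057 and lay between the treated arrays, so the groups overlapped. The difference in SNAI2 was 0.078 ± 0.19 (SE), with a 95% interval from 0.77- to 1.44-fold and a limma adjusted p of 0.997. Without treated replicate 1 it was -0.028.

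PRRX1 encodes the paired-related homeodomain factor of limb and craniofacial mesenchyme. Its log2 expression was 8.67 and 8.45 on the treated arrays, against 8.56 and 7.99 on the untreated arrays. Untreated replicate 2 was the lowest of the 4, and untreated replicate 1 lay between the treated arrays. The mean was 8.56 ± 0.16 in treated and 8.28 ± 0.41 in untreated cells (SD, n = 2 each), a difference of 0.28 ± 0.25 (SE) with a 95% interval from 0.81- to 1.82-fold (limma adjusted p = 0.963). Without untreated replicate 2 the difference was -0.0073, and without untreated replicate 1 it was 0.57.

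RUNX1 and RUNX2 encode DNA-binding subunits of the core-binding factor, RUNX1 being known from blood formation and RUNX2 from bone formation. RUNX1 stood at 8.35 and 7.64 on the treated arrays, against 7.57 and 7.97 on the untreated arrays. Treated replicate 1 was the highest of the 4 and the other treated array lay between the untreated arrays. The gap between the treated arrays, 0.71, exceeded the difference between the means of 0.22 ± 0.28 (SE), whose 95% interval ran from 0.73- to 1.86-fold (limma adjusted p = 0.985). Leaving out treated replicate 1 gave -0.13 for RUNX1, and leaving out treated replicate 2 gave 0.58.

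RUNX2 stood at 7.77 and 7.73 on the treated arrays, against 7.84 and 7.14 on the untreated arrays. Untreated replicate 1 was the highest array and untreated replicate 2 the lowest, with both treated arrays between them. The difference in RUNX2 was 0.26 ± 0.26 (SE), with a 95% interval from 0.78- to 1.84-fold (limma adjusted p = 0.977). It was -0.085 without untreated replicate 2 and 0.61 without untreated replicate 1. The array value does not separate transcripts by their start.

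RUNX2 is known to be transcribed from a distal and a proximal promoter and to bind its own distal promoter, and SPP1, which encodes osteopontin, is a bone matrix gene that RUNX2 activates. The 250 bases before the annotated starts of RUNX2 and SPP1 are shown for this reason, 5′ to 3′ from RefSeq on GRCh38.p14, all on the plus strand, with each RUNX core (TGTGGT, or ACCACA on the other strand) in capitals.
RUNX2, first start, chr6:45328080-45328329: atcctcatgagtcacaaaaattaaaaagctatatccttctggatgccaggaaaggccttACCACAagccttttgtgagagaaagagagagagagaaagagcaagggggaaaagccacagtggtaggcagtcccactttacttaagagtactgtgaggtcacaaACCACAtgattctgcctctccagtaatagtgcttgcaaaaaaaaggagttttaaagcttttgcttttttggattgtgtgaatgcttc
RUNX2, second start, chr6:45422025-45422274: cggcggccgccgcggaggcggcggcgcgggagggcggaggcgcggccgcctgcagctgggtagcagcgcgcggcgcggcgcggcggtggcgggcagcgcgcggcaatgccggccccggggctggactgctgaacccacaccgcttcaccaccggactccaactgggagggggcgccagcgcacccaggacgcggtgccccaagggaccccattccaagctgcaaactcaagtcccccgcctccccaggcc
SPP1, chr4:87975464-87975713: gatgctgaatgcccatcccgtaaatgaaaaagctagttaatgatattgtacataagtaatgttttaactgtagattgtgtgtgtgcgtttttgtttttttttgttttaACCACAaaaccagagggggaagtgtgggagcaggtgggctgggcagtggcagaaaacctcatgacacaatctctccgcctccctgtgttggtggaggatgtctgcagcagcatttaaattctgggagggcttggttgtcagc
The first RUNX2 start has 2 RUNX cores, which begin 191 and 87 bases before it, the second start has 0, and SPP1 has 1, which begins 142 bases before its start. A RUNX core was present in 11% of 35116 RefSeq promoters over the same 250 bases. The SPP1 probe set read 4.08 and 3.46 on the treated arrays, against 4.002 and 3.80 on the untreated arrays, all below the limit.

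Of the 9 genes, 6 matched the RefSeq promoter table (PRRX1, RUNX1, RUNX2, MEOX2, SIX4 and TBX18), with 7 starts because RUNX2 has 2. Besides RUNX2, the MEOX2 start has 1 RUNX core. Further motifs were searched on both strands of the 250 bases, namely the E-box CAGGTG bound by SNAI2 and TWIST1, the homeodomain core TAATTA, and the T-box core GGTGTGA. They were found in 0 of the 7 starts, while 17.5%, 4.35% and 2.76% of all promoters held them in that order. These matches describe letters in a window and were not related to the array values.

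TBX18 encodes a T-box repressor of the epicardium, somites and ureter mesenchyme. It stood at 8.71 and 8.56 on the treated arrays, against 8.51 and 8.84 on the untreated arrays. The untreated arrays were the lowest and the highest of the 4, with both treated arrays between them. The difference in TBX18 was -0.032 ± 0.20 (SE), with a 95% interval from 0.70- to 1.37-fold (limma adjusted p = 0.998). Leaving out untreated replicate 2 gave 0.13, and leaving out treated replicate 2 gave 0.043.

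MEOX1, MEOX2 and SIX4 did not exceed the limit on any array. MEOX1 and MEOX2 encode homeodomain factors of the somites, and SIX4 encodes a homeodomain factor that acts with EYA co-activators in muscle and sensory development. MEOX1 stood at 6.10 and 5.65 on the treated arrays and at 6.07 and 5.94 on the untreated arrays. MEOX2 stood at 3.68 and 3.68 on the treated arrays and at 3.82 and 4.07 on the untreated arrays. SIX4 stood at 4.38 and 4.11 on the treated arrays and at 4.26 and 4.33 on the untreated arrays. The MEOX2 groups did not overlap, with both treated arrays lower, as in 16.8% of all probe sets tested. With TWIST1 this made 2 of the 9 genes without overlap, where the share over all tested sets was 33.1% in both directions together and 16.4% with the treated arrays higher. Differences between values under the limit are not read as changes, and no fold is given for these 3 genes. Counts of signs and medians over the 9 genes and over whole lists still include genes under the limit, and for those genes a sign is not a direction of change.

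**Figure D2:**
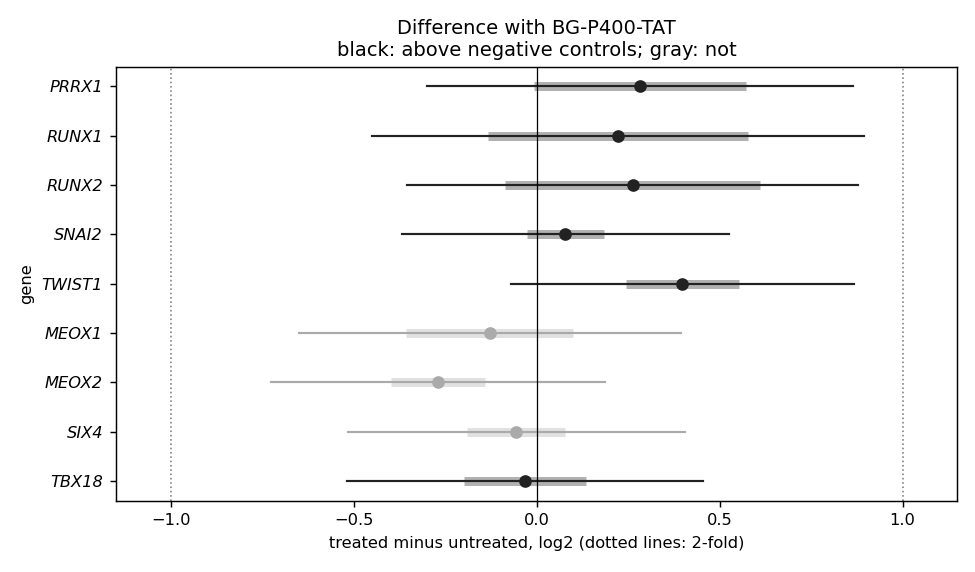
Difference in log2 expression, treated minus untreated (horizontal axis), for the 9 genes (vertical axis). Points are the differences, thin lines 95% confidence intervals of the limma fit, thick pale bars the range when each array is left out in turn, and dotted lines 2-fold. All 9 intervals include 0 and lie within 2-fold in both directions, and the thick bars of TWIST1 and MEOX2 do not reach 0.

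For all 6 genes above the limit the 95% interval lay within 2-fold in both directions, as it did for 95.3% of the 9960 probe sets above the limit. The upper ends ran from 1.37-fold for TBX18 to 1.86-fold for RUNX1. The gap between the untreated arrays exceeded the difference between group means for 4 of the 6 genes (PRRX1, RUNX1, RUNX2 and TBX18) and for 65.0% of the probe sets above the limit.

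Untreated replicate 2 was the array farthest from the rest for several of the genes. This array stood apart from the other 3 over the whole table, with a median absolute log2 difference to them of 0.24 each (0.244 to the other untreated array), against 0.193 to 0.208 among the others. For PRRX1, RUNX2 and TWIST1 untreated replicate 2 was the lowest of the 4 arrays, 3 of 6 genes, as it was for 38.1% of the probe sets above the limit. Its deviation from the mean of the other 3 arrays was -0.57 for PRRX1, -0.64 for RUNX2 and -0.47 for TWIST1, while the 5th percentile over the probe sets above the limit was -0.53. For RUNX1, SNAI2 and TBX18 the deviation was 0.12, -0.048 and 0.24, the 95th percentile being 0.37. Without this array the difference, treated minus untreated, was -0.0073 for PRRX1, -0.085 for RUNX2 and 0.24 for TWIST1. Treated replicate 1 was the highest of the 4 arrays for PRRX1, RUNX1, SNAI2 and TWIST1. These are 4 of 6 genes, where the share of the probe sets above the limit was 26.5%.

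**Figure D3:**
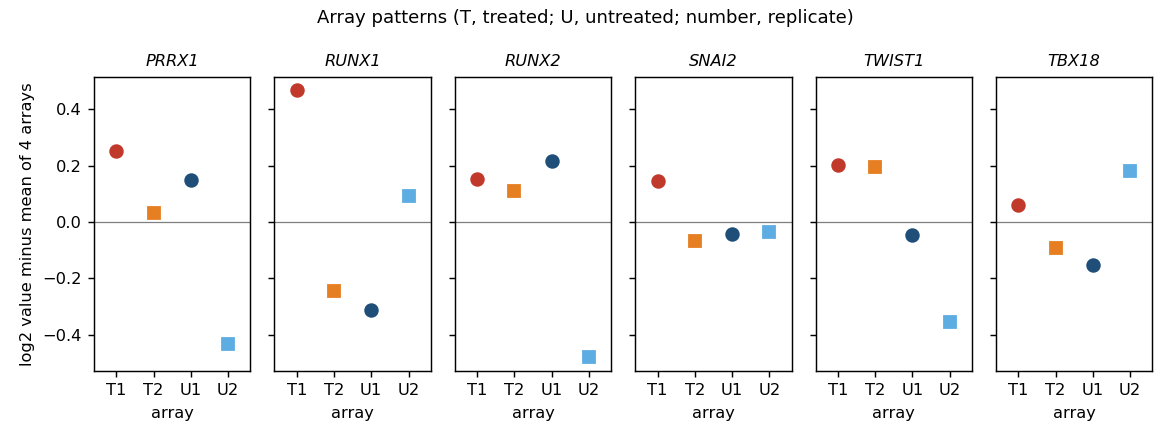
Log2 expression minus the gene's mean over the 4 arrays (vertical axis) for the 6 genes above the negative controls, by array (horizontal axis: T1 and T2, treated replicates; U1 and U2, untreated replicates). U2 is the lowest point for PRRX1, RUNX2 and TWIST1 and the highest for TBX18, and T1 is the highest for PRRX1, RUNX1, SNAI2 and TWIST1.

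Genes with the most similar array patterns were sought among 8722 named genes above the limit, by the root mean square distance of the 4 values after centring each gene on its mean. For TWIST1 they were AAMP (0.015) and MRTO4 (0.018), and for SNAI2 PSMD14 (0.0077) and SLC4A7 (0.0096). For PRRX1 they were TRIM16 (0.011) and ZBTB26 (0.021), and for TBX18 MTCL2 (0.0046) and PPP1R14A (0.014). RUNX1 was closest to LTBR (0.029) and INTS1 (0.044), and RUNX2 to ACAD9 (0.016) and API5 (0.016). With 4 arrays these distances only describe which genes went up and down on the same arrays. None of the 6 genes was among the closest genes of another of the 6.

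Paralogues of the 9 genes were measured for 12 of 13 listed genes, 4 of them above the limit, and the difference was positive for 4 and negative for 8, with 0 called in either direction (median difference -0.046; 0.10 without untreated replicate 2, 0.12 without treated replicate 1, -0.14 without untreated replicate 1 and -0.16 without treated replicate 2). Among the 4 paralogues above the limit, the difference was positive for 1 and negative for 3. It was positive for 49.1% of all tested sets and 58.6% of those above the limit. SNAI1, the SNAI2 paralogue that also represses epithelial genes, stood at 8.12 and 8.56 on the treated arrays, against 8.02 and 7.69 on the untreated arrays. SNAI1 was named for the smallest limma p among the paralogues above the limit. Its groups did not overlap, where 20.9% of all probe sets above the limit likewise had both treated arrays higher. The difference in SNAI1 of 0.49 ± 0.23 (SE) did not pass (limma adjusted p = 0.948), and it was 0.27 to 0.71 with an array left out. SIX2, a kidney progenitor factor, stood at 6.94 and 6.92 on the treated arrays and at 6.86 and 7.13 on the untreated arrays, above no array's own limit. TWIST2, PRRX2 and RUNX3 are named after their values were seen. TWIST2 was above the limit at 7.92 and 8.40 on the treated arrays and 8.40 and 8.06 on the untreated arrays. PRRX2 (4.16 to 4.86 over the 4 arrays) and RUNX3 (3.51 to 4.49) were below it, so that PRRX1, RUNX1 and RUNX2 were the measured members of their families above the negative controls.

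Protein partners gave 18 measured genes of 18, 13 of them above the limit, with 11 higher, 7 lower and 0 called. Of all tested sets 49.1% were higher, as were 58.6% of those above the limit. The median difference of the partners was 0.10, or -0.0098 without untreated replicate 2. CBFB, the non-DNA-binding subunit shared by all RUNX factors, stood at 13.60 and 13.31 on the treated arrays and at 13.56 and 13.48 on the untreated arrays, and the groups overlapped (difference -0.067, limma adjusted p = 0.997). ID3 and ID1 encode helix-loop-helix proteins without a DNA-binding region, which take up the E proteins that TWIST1 pairs with. ID3 stood at 11.84 and 11.90 on the treated arrays, against 11.08 and 11.69 on the untreated arrays. ID1 stood at 12.33 and 12.34 on the treated arrays, against 11.97 and 12.02 on the untreated arrays. Both were named for the smallest limma p among the partners above the limit. Neither group pair overlapped, where 20.9% of all probe sets above the limit likewise had both treated arrays higher. Neither difference passed, at 0.49 ± 0.24 for ID3 and 0.34 ± 0.18 for ID1 (SE, limma adjusted p = 0.948 each). Leaving out an array gave 0.18 to 0.80 for ID3 and 0.32 to 0.37 for ID1.

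Other regulators described as mesenchymal in neuroblastoma numbered 16 measured of 17, with 12 above the limit, 10 higher, 6 lower and 0 called. The share higher was 49.1% over all tested sets and 58.6% over those above the limit. The median difference of these regulators was 0.10. It ran from -0.054 to 0.25 with an array left out, and was negative without untreated replicate 2. MAFF, a small MAF protein, stood at 6.76 and 7.31 on the treated arrays, against 7.09 and 7.54 on the untreated arrays, and exceeded the array's own limit on 1 of 4 arrays. MEF2D, a MADS-box factor of muscle and neurons, stood at 8.99 and 9.10 on the treated arrays, against 8.94 and 8.77 on the untreated arrays. Their differences were -0.28 and 0.19, with unadjusted p-values of 0.324 and 0.341 in the limma fit. With an array left out the MAFF difference ran from -0.55 (without treated replicate 2) to -0.0035 (without treated replicate 1), and it was -0.053 when untreated replicate 2 was dropped. That of MEF2D ran from 0.10 to 0.28.

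Epithelial genes known to be repressed by SNAI2, TWIST1 or ZEB factors were mostly below the limit: 3 of 13 measured genes lay above it. CDH1, which encodes E-cadherin and is the textbook target of SNAI2, stood at 2.76 and 3.03 on the treated arrays and at 2.85 and 2.83 on the untreated arrays, and no array exceeded its limit. The difference was positive for 4 and negative for 9 of the 13, and 0 were called (median difference -0.11, or -0.012 without untreated replicate 2). Among the 3 above the limit it was positive for 1 and negative for 2. It was positive for 49.1% of all tested sets and 58.6% of those above the limit. CRB3, which encodes an apical polarity protein, was above the limit at 7.90 and 7.99 on the treated arrays, against 8.37 and 7.99 on the untreated arrays. CLDN4, a tight junction claudin, stood at 9.11 and 8.73 on the treated arrays and at 8.79 and 8.83 on the untreated arrays. The differences were -0.23 for CRB3 and 0.10 for CLDN4, and the groups overlapped for both. That of CRB3 was -0.040 without untreated replicate 1 and -0.42 without untreated replicate 2, and that of CLDN4 was -0.087 without treated replicate 1 and 0.29 without treated replicate 2.

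The promoter of CRB3 is shown because it had the most E-boxes of the kind that SNAI2 binds among the listed epithelial genes in the promoter table. The 250 bases before its start, 5′ to 3′ on the plus strand of GRCh38.p14 from RefSeq, carry 5 matches to CAGGTG or its reverse complement CACCTG, in capitals.
CRB3, chr19:6464021-6464270: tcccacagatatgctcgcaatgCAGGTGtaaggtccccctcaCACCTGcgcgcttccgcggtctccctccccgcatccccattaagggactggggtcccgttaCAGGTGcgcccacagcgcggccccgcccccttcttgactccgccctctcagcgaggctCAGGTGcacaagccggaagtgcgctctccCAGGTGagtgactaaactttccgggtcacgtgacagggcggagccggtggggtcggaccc
The matches begin 228, 208, 147, 89 and 60 bases before the start, and 17.5% of all promoters held at least 1. The share of promoters with 5 matches was not counted, and CDH1 has no entry in the promoter table. CRB3 was above each array's limit on all 4 arrays, as were SNAI2 and TWIST1.

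Mesenchymal transition genes were above the limit for 10 of 11 measured genes, with 6 higher, 5 lower and 0 called. Of all sets above the limit, 58.6% were higher. The median difference of the list was 0.049, with -0.066 without untreated replicate 1 and -0.047 without treated replicate 1. CDH2, which encodes N-cadherin, stood at 14.04 and 14.12 on the treated arrays and at 14.24 and 14.09 on the untreated arrays. VIM, the intermediate filament vimentin, stood at 15.64 and 15.57 on the treated arrays, against 15.55 and 15.45 on the untreated arrays. ZEB1, a zinc-finger repressor of epithelial genes, had a difference of -0.33 ± 0.22 (SE), with 13.45 and 12.97 on the treated arrays and 13.53 and 13.55 on the untreated arrays. It was -0.089 without treated replicate 2 and -0.57 without treated replicate 1. FN1, fibronectin, had a difference of 0.38 ± 0.28 (SE), which was 0.011 without untreated replicate 2. None of these differences passed.

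Skeletal matrix targets of RUNX2 and PRRX1 were above the limit for 2 of 13 measured genes, namely COL1A1 and COL1A2, the chains of type I collagen. COL1A1 stood at 7.21 and 7.01 on the treated arrays, against 7.42 and 7.36 on the untreated arrays, and exceeded the array's own limit on 2 of 4 arrays. COL1A2 stood at 9.67 and 9.43 on the treated arrays, against 9.56 and 10.12 on the untreated arrays. The differences were -0.28 ± 0.19 and -0.29 ± 0.24 (SE). Over the list, most of it under the limit, 4 genes were higher, 9 lower and 0 called, where 49.1% of all tested sets were higher. The median difference of the list was -0.17. That median was -0.061 without untreated replicate 1, -0.30 without treated replicate 1, -0.080 after cyclic loess and -0.29 over the 2 genes above the limit. Without untreated replicate 2 the difference of COL1A2 was -0.0083. The cell cycle inhibitor gene CDKN2A, known as a MEOX target in endothelial cells, stood at 10.37 and 10.29 on the treated arrays and at 10.21 and 10.61 on the untreated arrays, and CDKN1A, the other gene of that list, was below the limit.

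Adrenergic transcription factors, which define the opposite state, were above the limit for 14 of 15 measured genes, with 10 higher, 5 lower and 0 called. Among all sets above the limit 58.6% were higher. The median difference of the adrenergic list was 0.12, or 0.013 without untreated replicate 2. PHOX2A, a homeodomain factor of sympathetic neurons, stood at 8.57 and 8.51 on the treated arrays, against 8.12 and 7.80 on the untreated arrays. GATA2, a zinc-finger factor of the same lineage, stood at 11.35 and 11.49 on the treated arrays, against 11.20 and 10.80 on the untreated arrays. Both were named for the smallest limma p among the genes of this list above the limit, a choice that favors groups without overlap. Neither group pair overlapped, and 20.9% of all probe sets above the limit, not chosen by p, likewise had both treated arrays higher. The intervals that follow are not adjusted for that choice. The difference was 0.58 ± 0.20 (SE) for PHOX2A, with a 95% interval from 1.08- to 2.07-fold and an unadjusted limma p of 0.0228. For GATA2 it was 0.42 ± 0.21 (SE), with a 95% interval from 0.94- to 1.90-fold. Leaving out an array gave 0.42 to 0.73 for PHOX2A and 0.22 to 0.62 for GATA2. Their limma adjusted p was 0.948 each, so neither passed. RNA for the factors of both states was thus measured on the same arrays, and bulk arrays do not tell whether the same cells held both.

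**Figure D4:**
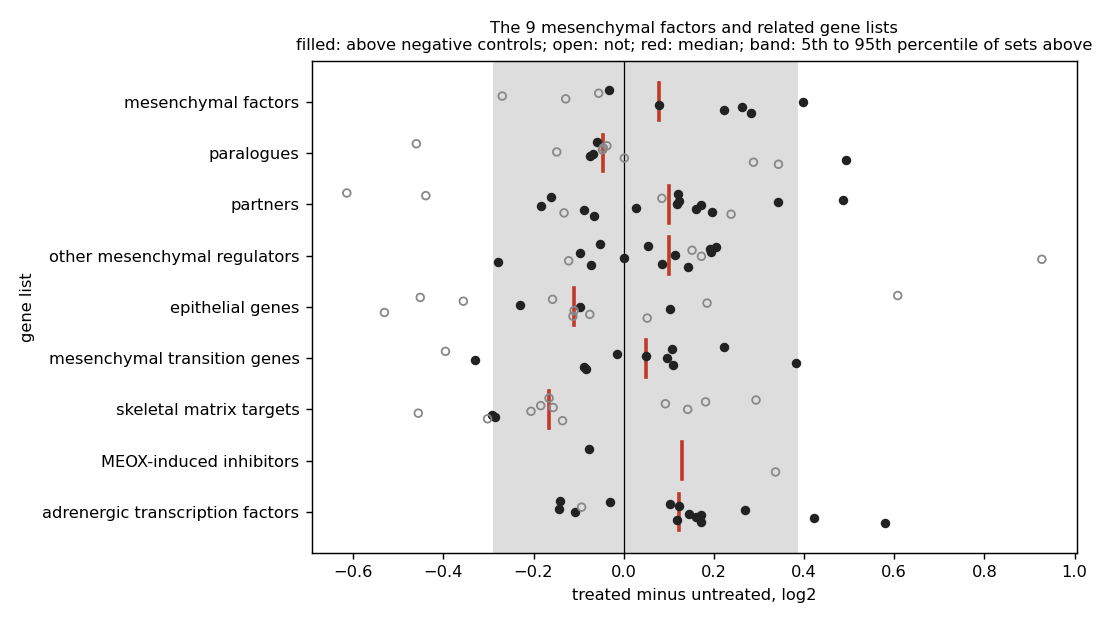
Difference in log2 expression, treated minus untreated (horizontal axis), for the 9 mesenchymal factors and the 8 related lists (vertical axis), 1 point per gene. Filled points are genes above the negative controls, open points are not, red bars are list medians, and the gray band spans the 5th to 95th percentile of all probe sets above the negative controls (-0.29 to 0.39). Of the filled points, TWIST1 lies just beyond the upper edge of the band (0.40). PHOX2A (0.58), SNAI1 (0.49), ID3 (0.49) and GATA2 (0.42) lie farther beyond that edge, and ZEB1 (-0.33) and COL1A2 (-0.29) lie beyond the lower edge. The list medians lie between -0.17 and 0.13.

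Together the 8 lists held 98 measured genes, of which 57 were above the limit and 0 were called. An unadjusted p under 0.05 was reached by 5 of them, PHOX2A, EYA4, IRF1, CDH3 and COL10A1, and only PHOX2A was above the limit. These are 5.10% of the 98 genes, against 5.08% of all tested sets, and 1.75% of the 57 above the limit, against 2.49% of all sets above it. Apart from PHOX2A they are named after their values were seen. The partner and adrenergic lists share HAND1 and HAND2.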

How the data were processed

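The authors deposited 1 log2 expression value per probe set and array. RMA and version 4.0.1.36 of Transcriptome Analysis Console are listed in the submitters' processing notes. RMA quantile-normalizes arrays, which takes out a shift common to most genes. Of 24351 probe sets, 2903 control sets were left out and 21448 tested without a filter. The platform annotation gave 17709 probe sets 1 symbol; the brightest set per symbol was used. The probe sets' genome build is not given in the sources used.

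The limma package (3.58.1; R 4.3.3) was used for a linear model with 1 term, the group, and moderated variances (lmFit, eBayes). Tests were two-sided, with Benjamini-Hochberg adjustment over all 21448 sets at 0.05, and the fit was tested on simulated data. In simulated arrays a log2 change of 1, or 2-fold, was called in 35 of 500 cases (7.0%). A log2 change of 2 was called in 457 of 500 (91.4%). Most 2-fold changes were thus missed there. Differences are treated minus untreated. The number of arrays limits precision. Lists were described by counts and medians, with no set test. Named genes are the 9 factors, the 2 genes per list above the negative controls with the smallest p, CDH1, CDH2, VIM and CBFB, and the 2 nearest patterns; other genes named (TWIST2, PRRX2, RUNX3, SPP1, CDKN1A, HAND1, HAND2, EYA4, IRF1, CDH3, COL10A1, TBX20 and cell type markers) fall outside this rule and were chosen after their values were seen. The genes and lists were chosen with earlier results of these data known. Alternatives were other normalizations, filters, variance moderation, thresholds, limits, a replicate block and each array left out.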

Additional observations from a re-analysis of the deposited data

How the results depend on the processing

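No setting of the fit called a probe set or one of the 9 genes at an adjusted p under 0.05, and an adjusted p under 0.1 called 0 as well. In the main fit, 1089 probe sets and 0 of the 9 genes had an unadjusted p under 0.05. TWIST1 had an unadjusted limma p of 0.0476 with only sets above the negative controls and 0.0397 with a mean-variance trend. Its limma adjusted p was then 0.971 and 0.977. The count of the 9 genes higher in treated cells was 5 with the deposited values, 6 after quantile normalization or cyclic loess, and 3 to 8 with an array left out, 3 without treated replicate 1 and 8 without treated replicate 2. The genes above the negative controls numbered 6 at the 90th and 95th percentile, 2 at the 99th (SNAI2 and TWIST1, whose means exceeded 9.42) and 5 where every array had to exceed its own limit. Genes whose groups did not overlap numbered 2 of 9 on the deposited scale and after quantile normalization, median centring or cyclic loess, against 33.1% of all tested sets on the deposited scale. Lists with a positive median numbered 5 of 8, and 3 to 5 with an array left out. The sign of SIX4, below the limit, turned after quantile normalization (0.023) and cyclic loess (0.0090). With an array left out the differences were -0.0073 to 0.57 for PRRX1, -0.13 to 0.58 for RUNX1, -0.085 to 0.61 for RUNX2, -0.028 to 0.18 for SNAI2, -0.20 to 0.13 for TBX18, -0.36 to 0.098 for MEOX1 and -0.19 to 0.078 for SIX4. TWIST1 (0.24 to 0.55) and MEOX2 (-0.40 to -0.14) kept their sign. Other signs that turned were those of SIX2 (-0.20 to 0.069), CLDN4 (-0.087 to 0.29), CDKN2A (-0.28 to 0.12), CDH1 (-0.080 to 0.18) and CBFB (-0.21 to 0.076). Of the 12 nearest-pattern genes, 7 were also nearest after quantile normalization and 11 after cyclic loess. All genes of the lists had 1 probe set, so averaging probe sets changed nothing. The main fit did not pair arrays by replicate number. Deviations of same-numbered arrays had a correlation of -0.00085 over all sets and 0.022 over those above the limit. The labels do not say whether same-numbered arrays were handled together, and these correlations do not settle it. The fit with the replicate number as a block called 0 probe sets and 0 of the 9 genes, and left 5 of the 9 higher.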

Other observations

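Markers of other cell types were measured on the same arrays. All 8 measured fibroblast markers were above the limit, where 58.6% of all probe sets were higher in treated cells. Of these 8 markers, 2 were higher and 6 lower. Their mean log2 expression was 11.24 and 11.17 on the treated arrays and 11.25 and 11.30 on the untreated arrays. Among them, COL1A1 exceeded the array's own limit on 2 of 4 arrays. THY1, a surface glycoprotein among these 8, stood at 11.84 and 12.19 on the treated arrays, against 11.35 and 11.38 on the untreated arrays, a difference of 0.65 (1.57-fold, 95% interval 1.12 to 2.19) with an unadjusted p of 0.0153 and an adjusted p of 0.948 in the limma fit. Its part in the values of the 9 factors was not tested. Of 11 neuroblast and sympathetic markers 9 were above it, and TH and DBH, enzymes of catecholamine synthesis, were below it. No Schwann (0 of 4) or endothelial (0 of 5) marker was above the limit, and of 6 epithelial markers CLDN4 alone was. Of 5 leukocyte markers 2 were above it, CD68 and PTPRC, and CD3E, CD14 and LYZ were not. PTPRC, the pan-leukocyte phosphatase CD45, stood at 12.71 and 12.57 on the treated arrays and at 12.75 and 12.80 on the untreated arrays. TBX20, a cardiac T-box factor on the paralogue list, stood at 10.47 and 10.37 on the treated arrays and at 10.46 and 10.50 on the untreated arrays. THY1, PTPRC and TBX20 were picked out once their values were known, and whether their probe sets read other transcripts was not tested.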
